A study of Mus musculus with 9 samples.

Results

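The 9 genes described here, Slc12a1, Egf, Slc8a1, Wnk1, Scnn1g, Hsd11b2, Aqp3, Rhcg and Slc26a4, carry out or control the handling of salt, water and acid in the distal nephron, taken here as the kidney tubule from the thick ascending limb to the collecting duct. They were listed by gene name, with earlier results of these data known, and are 9 of 14052 genes in the count table. All 9 had counts, passed the filter on low counts and entered the test with 7020 genes. RNA was sequenced from kidney cortex of mice about 1 year old on a normal diet. There were 5 tumour areas, which the labels name L4, R2, R3, R4 and R5. They came from animals homozygous for floxed Vhl and floxed Pbrm1 (F/F) that carried Ksp-Cre, on a mixed background of C57BL/6, BALB/c and 129. The 4 normal areas, named L1, L2, R1 and R2, were cortex of wild-type C57BL/6 animals. The promoter in Ksp-Cre is that of Cdh16, the kidney-specific cadherin of tubule epithelium. Cells in whose lineage it was never active keep both floxed genes. Sample descriptions carry 1 number per group, so the areas of a group may come from 1 animal, and p-values may then measure only the spread between areas. No Cre-negative floxed mice and no uninvolved cortex of the mutant mice were analysed here, and strain, genotype and tumour cannot be told apart.

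In the thick ascending limb, sodium chloride is taken up without water, which dilutes the urine and builds the salt gradient of the medulla. The distal convoluted tubule and the connecting tubule then set the final excretion of salt, calcium and magnesium, under the control of WNK kinases and of aldosterone. In the collecting duct, principal cells take up sodium through the epithelial channel ENaC and water through aquaporins, while intercalated cells secrete acid or bicarbonate. VHL and PBRM1 are often mutated in human clear cell kidney cancer, which is usually held to arise from the proximal tubule.

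Promoters of 4 of the genes are shown because they hold motifs that were searched for, in a set of genes that moved together. Each line gives the 250 bases before the transcription start, from RefSeq with the build GRCm38.p6, 5′ to 3′ on the strand of the gene. Slc12a1 lies at chr2:125152350-125152599 on the plus strand, Slc8a1 at chr17:81738388-81738637, Rhcg at chr7:79617658-79617907 and Slc26a4 at chr12:31559985-31560234, all but Slc12a1 on the minus strand. Capitals mark ACGTG or GCGTG, the core letters bound by the HIF factors that Vhl controls, in the first pair of lines. In Rhcg and Slc26a4 they mark AGAACA, a hexamer bound by steroid hormone receptors, and TATAAA, the TATA box, each on either strand, so that AGAACA on the other strand is printed as TGTTCT.
Slc12a1: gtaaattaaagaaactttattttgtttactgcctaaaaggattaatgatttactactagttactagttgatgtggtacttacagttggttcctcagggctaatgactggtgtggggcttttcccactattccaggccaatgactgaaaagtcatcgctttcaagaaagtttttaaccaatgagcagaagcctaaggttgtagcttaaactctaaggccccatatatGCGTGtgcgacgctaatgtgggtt
Slc8a1: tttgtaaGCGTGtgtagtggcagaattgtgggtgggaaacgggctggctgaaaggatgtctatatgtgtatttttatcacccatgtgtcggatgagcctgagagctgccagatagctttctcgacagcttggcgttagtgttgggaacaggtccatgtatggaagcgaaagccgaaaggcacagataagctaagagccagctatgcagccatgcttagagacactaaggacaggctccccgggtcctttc
Rhcg: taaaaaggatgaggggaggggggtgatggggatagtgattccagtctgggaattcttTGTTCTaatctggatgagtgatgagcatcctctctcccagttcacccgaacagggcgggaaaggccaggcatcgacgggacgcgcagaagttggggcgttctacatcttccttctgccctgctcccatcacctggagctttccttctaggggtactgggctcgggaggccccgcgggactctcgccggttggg
Slc26a4: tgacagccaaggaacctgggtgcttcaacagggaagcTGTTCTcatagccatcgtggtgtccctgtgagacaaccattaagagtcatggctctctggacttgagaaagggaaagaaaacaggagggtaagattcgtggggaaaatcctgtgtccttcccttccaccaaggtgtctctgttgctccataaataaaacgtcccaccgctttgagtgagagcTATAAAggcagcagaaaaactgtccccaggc

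The promoter table has 9 windows for 8 of the genes, as Egf has 2, and none for Hsd11b2. The HIF core letters were in 4 of 9 windows (Slc12a1, Slc8a1, Wnk1 and 1 of the 2 of Egf), against 38.6% of 32851 mouse promoter windows of the same length. AGAACA was in 2 of 9, those of Rhcg and Slc26a4, against 16.1% of all windows. TATAAA was in 2 of 9, those of Aqp3 and Slc26a4, against 12.4%. In Slc26a4 the TATAAA lay 31 bases and in Aqp3 29 bases before the start. A match of letters is a description and does not show that a factor binds.

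Counted reads per area ran from 5143527 to 8250261. Levels are given as CPM, the counts of a gene scaled to a common library total, with TMM factors that correct for library composition. They do not compare amounts between genes of different length. Of the 7020 genes tested, 74.6% passed edgeR's quasi-likelihood test at an adjusted p under 0.05, with 2476 (35.3%) lower and 2760 (39.3%) higher in the tumour group. With libraries scaled by size alone 1689 were lower and 3732 higher, and the median log2 fold change of all genes shifted by 0.29. Vhl had 45.1 to 75.6 CPM in the tumour areas, against 97.6 to 108 CPM in the normal areas (log2 fold change -0.79 ± 0.13 SE, adjusted p = 0.000248 in edgeR). Pbrm1 averaged 136 ± 21.5 CPM in tumour and 155 ± 10.1 CPM in normal areas (SD, n = 5 and 4) and did not pass (adjusted p = 0.142 in edgeR). Counts per gene do not show whether the floxed exons are present.

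All 9 genes fell in the tumour areas, and in each of them every tumour area lay below every normal area. Of all tested genes, 35.3% were called lower, 67.8% had groups that did not overlap in either direction, and 33.0% had all tumour areas below all normal areas. All 9 also had a log2 fold change of -1 or below, as did 12.6% of tested genes. The falls ran from 3.27-fold for Scnn1g to 12.2-fold for Slc8a1, and the median of the 9 log2 fold changes was -2.57, against 0.06 over all tested genes. With libraries scaled by size alone the 9 log2 fold changes ran from -1.43 to -3.33. Because these are bulk samples, fewer cells of the distal nephron and less RNA of these genes per cell cannot be told apart.

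**Figure D1:**
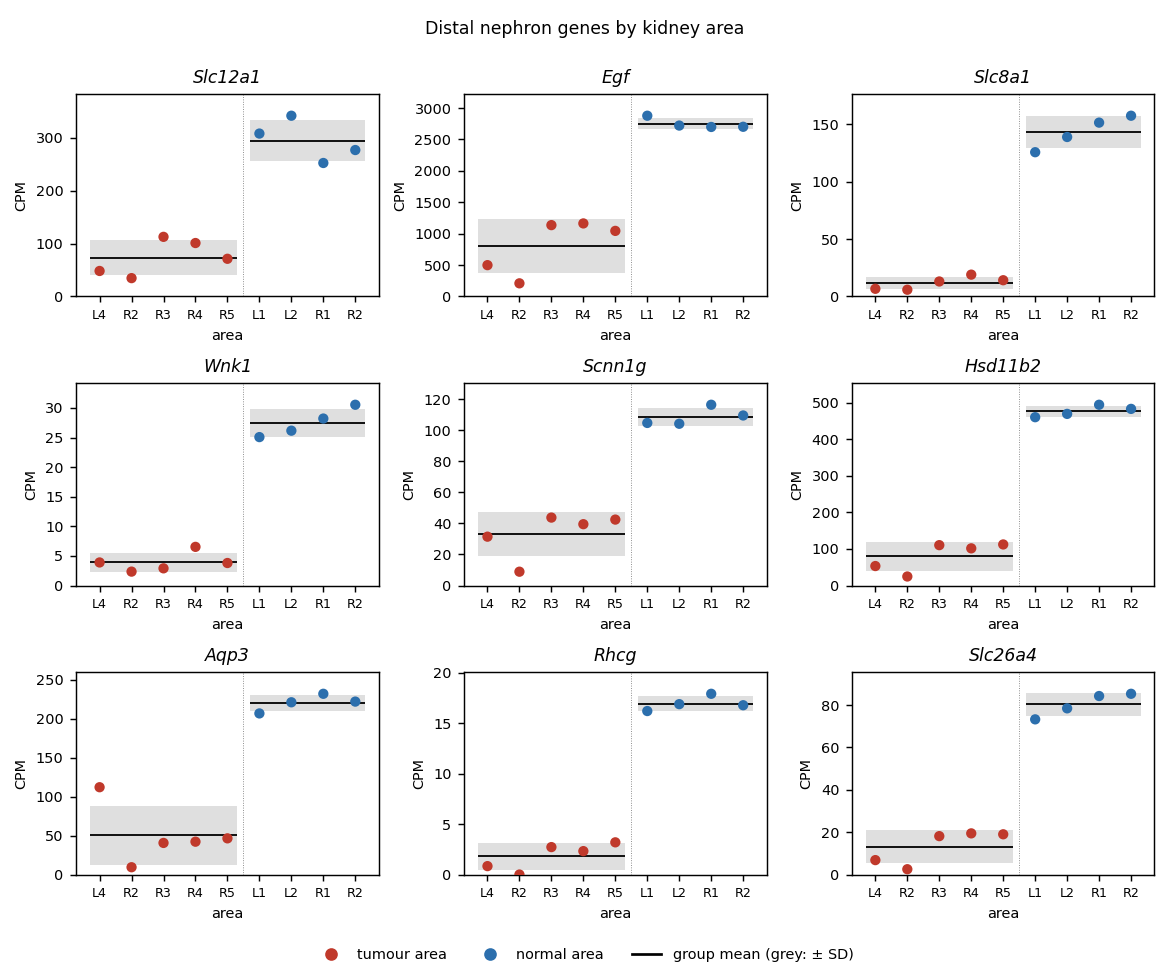
CPM of each of the 9 genes in every area, 1 panel per gene on a linear axis from 0, with tumour areas (red) left of normal areas (blue), a line for each group mean and grey for 1 SD to either side. In every panel the tumour areas lie below the normal areas, and tumour R2 is the lowest.

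Slc12a1 encodes the sodium, potassium and chloride cotransporter NKCC2 in the luminal membrane of the thick ascending limb, the target of loop diuretics. It had 48.2, 34.7, 113, 101 and 71.3 CPM in tumour areas L4, R2, R3, R4 and R5, against 308, 342, 252 and 277 CPM in normal areas L1, L2, R1 and R2. The groups did not overlap, and L4 and R2 were the lowest tumour areas. The group means were 73.6 ± 33.4 CPM in tumour and 295 ± 38.7 CPM in normal areas (SD, n = 5 and 4), a log2 fold change of -2.0 ± 0.29 (SE, adjusted p = 0.000119 in edgeR).

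Egf encodes the precursor of epidermal growth factor, which the thick ascending limb and distal convoluted tubule make in large amounts and which promotes magnesium uptake downstream. Its levels were 499, 209, 1136, 1163 and 1044 CPM in the tumour areas, in the same order, against 2878, 2722, 2699 and 2702 CPM in the normal areas. The tumour areas split, with R3, R4 and R5 close together and L4 and R2 much lower. The log2 fold change was -1.76 ± 0.41 (SE, adjusted p = 0.0026 in edgeR), with means of 810 ± 431 CPM in tumour and 2750 ± 85.9 CPM in normal areas. In GENCODE vM21 the exons of Egf and of Slc8a1 each share bases with 2 genes on the opposite strand. The library kit does not mark strand, and no annotation or strand setting of the counting is named. Reads from the shared bases may thus have been counted for Egf or Slc8a1 or left out.

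Slc8a1 encodes the sodium and calcium exchanger NCX1, which moves calcium out through the basolateral membrane of the distal convoluted and connecting tubule and is also prominent in heart muscle. It fell the most of the 9. It had 6.67, 5.87, 13.1, 19.0 and 14.1 CPM in the tumour areas, against 125.6, 139, 151 and 157 CPM in the normal areas. The tumour mean of 11.7 ± 5.49 CPM was 8.20% of the normal mean of 143 ± 14.1 CPM (SD), and the log2 fold change was -3.60 ± 0.27 (SE, adjusted p = 1.17e-06 in edgeR).

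Wnk1 encodes a kinase that senses chloride and, through SPAK and OSR1, sets the activity of the sodium chloride cotransporters; the distal convoluted tubule also makes a short form without the kinase domain. The gene has 26 transcripts in the same annotation, and the counts are per gene, so the 2 kinds of transcript could not be told apart. It had 3.89, 2.35, 2.90, 6.53 and 3.80 CPM in the tumour areas, from 14 to 45 reads each, against 25.1, 26.2, 28.2 and 30.5 CPM in the normal areas. The normal areas were close together and all far above the tumour areas. The log2 fold change was -2.80 ± 0.23 (SE, adjusted p = 1.98e-06 in edgeR).

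Scnn1g encodes the gamma subunit of ENaC, and Hsd11b2 the enzyme that inactivates glucocorticoid so that the mineralocorticoid receptor answers to aldosterone. Scnn1g had 31.4, 8.88, 43.7, 39.5 and 42.4 CPM in the tumour areas, against 105, 104, 116 and 109 CPM in the normal areas. Its fall was the smallest of the 9 (log2 fold change -1.71 ± 0.32 SE, adjusted p = 0.000717 in edgeR), and tumour R2 stood well below the other tumour areas. Hsd11b2 had 53.3, 24.6, 110, 102 and 112 CPM in the tumour areas, against 461, 470, 495 and 483 CPM in the normal areas. It fell to 16.9% of the normal mean (log2 fold change -2.57 ± 0.35 SE, adjusted p = 7.34e-05 in edgeR).

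Aqp3 encodes a water and glycerol channel in the basolateral membrane of principal cells, and it is also made by urothelium and skin. It had 112, 9.39, 40.6, 42.2 and 46.5 CPM in the tumour areas, against 207, 221, 232 and 222 CPM in the normal areas. Here alone among the 9 genes was L4 the highest tumour area, though still below every normal area. The log2 fold change was -2.13 ± 0.46 (SE, adjusted p = 0.00165 in edgeR), and it was -2.65 without tumour L4 and -2.82 without L4 and R5.

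Rhcg encodes an ammonia channel of intercalated and other collecting duct cells, and Slc26a4 encodes pendrin, the chloride and bicarbonate exchanger of bicarbonate-secreting intercalated cells. Rhcg had 0.83, 0, 2.72, 2.32 and 3.19 CPM in the tumour areas, which are 6, 0, 15, 16 and 21 reads, against 16.2, 16.9, 17.9 and 16.8 CPM in the normal areas. A count of 0 in tumour R2 allows up to 0.503 CPM at 3 counts, counting error only. The log2 fold change was -3.22 ± 0.47 (SE, adjusted p = 0.000109 in edgeR), with -2.90 without tumour R2 and -3.92 with limma-voom. Slc26a4 had 6.81, 2.51, 18.1, 19.4 and 19.0 CPM in the tumour areas, against 73.3, 78.5, 84.3 and 85.3 CPM in the normal areas. It showed the same split, with L4 and R2 far below the other tumour areas (log2 fold change -2.61 ± 0.41 SE, adjusted p = 0.000206 in edgeR).

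The tumour areas differed much more among themselves than the normal areas did. The coefficient of variation of the 9 genes ran from 41.3% to 75.1% over the tumour areas (median 49.0%), against 3.12% to 13.1% over the normal areas (median 5.22%). No such figure over all tested genes is given, so this spread is not shown to be particular to the 9. For Cdh16 it was 13.3% over the tumour and 2.12% over the normal areas. Tumour R2 was the lowest of the 5 tumour areas in 9 of 9 genes. Among all genes called lower, R2 was the lowest in 27.7% and L4 in 38.3%. The summed level of the 9 genes was 762, 298, 1481, 1495 and 1357 CPM in tumour L4, R2, R3, R4 and R5, against 4077 to 4199 CPM in the normal areas. Most of this sum was Egf, with 499, 209, 1136, 1163 and 1044 CPM in these tumour areas and 2699 to 2878 CPM in the normal areas. Relative to the normal mean, tumour R2 was at -5.72 on the log2 scale for Rhcg, where the prior count stands in for 0 reads, and at -4.83 for Slc26a4, its lowest values.

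**Figure D2:**
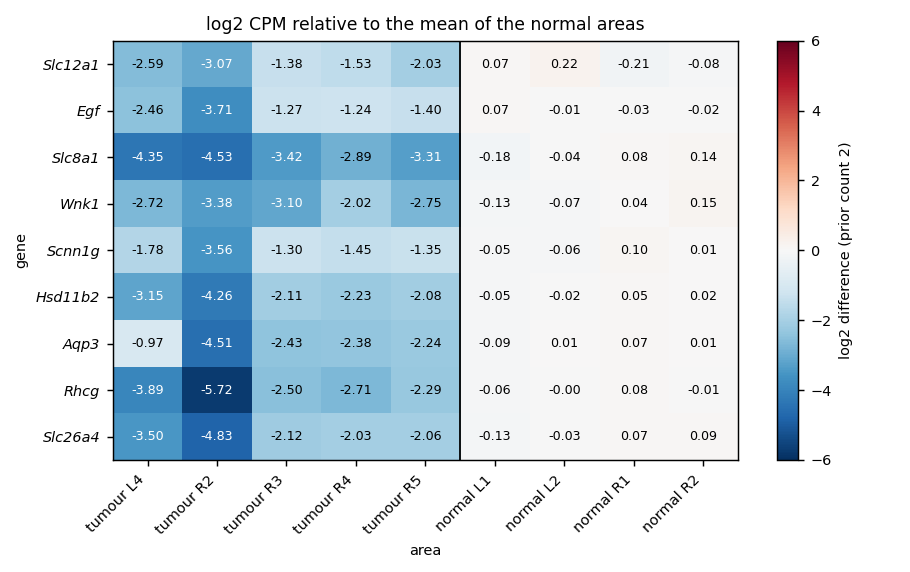
Log2 CPM (prior count 2) of each gene relative to the mean of the normal areas, genes in rows and areas in columns, with tumour areas left of normal areas, blue for lower and red for higher values. Tumour R2 has the lowest value of every row, and Aqp3 in tumour L4 (-0.97) is the palest value among the tumour areas.

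Pairs of genes were chosen by segment or cell type, though the genes of a pair need not be made by the same cells. Ratios of genes within an area do not depend on how libraries are scaled. Each was tested by an exact permutation of the 9 areas, 2-sided, with Benjamini-Hochberg adjustment over 15 ratios; the smallest p that these permutations can give is 0.00794. Slc8a1 over Wnk1 had a log2 ratio of 1.46 ± 0.52 in tumour and 2.37 ± 0.04 in normal areas (SD), lower in 5 of 5 tumour areas (exact permutation p = 0.0159, adjusted 0.0198). Without normal area L1, L2 or R1 the adjusted p of this ratio was 0.0536, and the difference kept its sign. Scnn1g over Hsd11b2 was at -1.26 ± 0.28 in tumour and -2.13 ± 0.04 in normal areas, higher in 5 of 5 tumour areas (exact permutation p = 0.00794, adjusted 0.0132). The pair that serves aldosterone-driven sodium uptake thus fell unequally, Hsd11b2 more than Scnn1g.

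Rhcg over Slc26a4 was at -2.74 ± 0.27 in tumour and -2.22 ± 0.07 in normal areas, lower in 5 of 5 tumour areas by 0.52 (exact permutation p = 0.0159, adjusted 0.0198). This difference depends on the prior count of 2 added to the few reads of Rhcg, being -0.996 with a prior count of 0.5. Its adjusted p was 0.0731 without normal L1, L2 or R1. For the pair of the thick ascending limb, Slc12a1 over Egf, the groups overlapped, with -3.33 ± 0.47 in tumour and -3.23 ± 0.18 in normal areas (exact permutation p = 0.706, adjusted 0.757). The ratios of Aqp3 overlapped too. Aqp3 over Scnn1g was 1.83 in tumour L4 and -0.10 to 0.13 in the other tumour areas, against 0.98 to 1.09 in the normal areas (adjusted p = 0.192, exact permutation). Without tumour L4 the difference was -0.97 with an adjusted p of 0.0306 in the exact permutation test. Aqp3 over Hsd11b2 was 1.07 in tumour L4 and -1.44 to -1.26 in the others, against -1.15 to -1.08 in the normal areas. Its difference of 0.26 turned to -0.22 without tumour L4, with adjusted p values of 1 and 0.0306 in the exact permutation test.

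**Figure D3:**
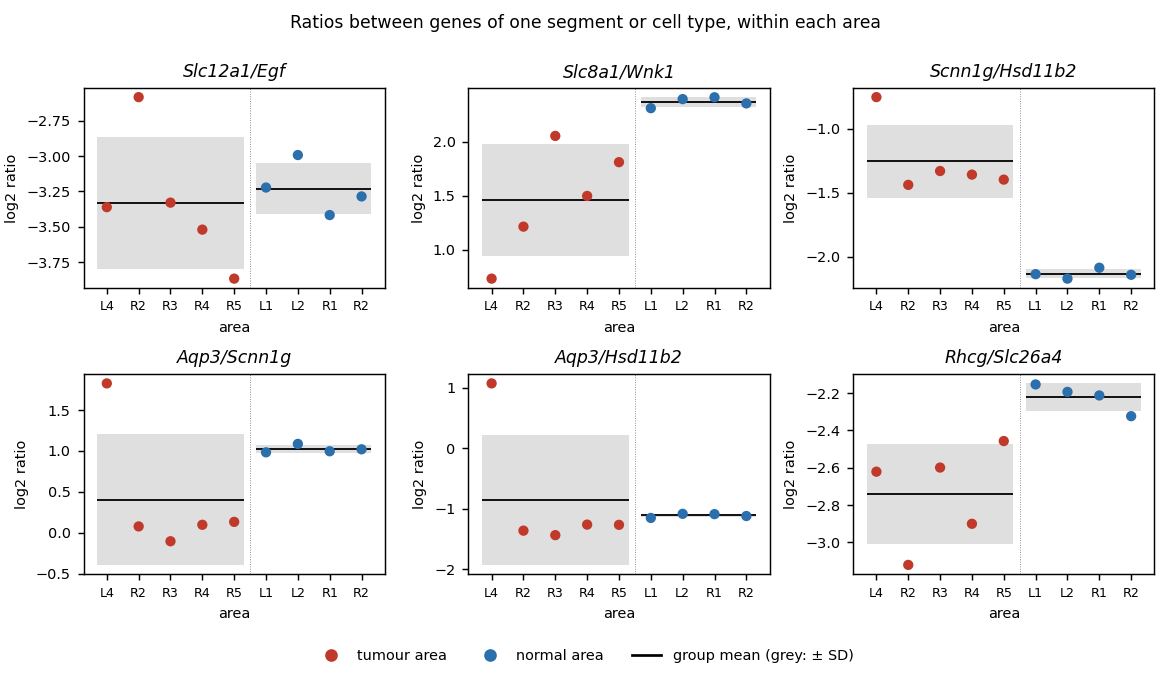
Log2 ratio (prior count 2) of 6 pairs of genes in each area, tumour areas (red) left of normal areas (blue), with lines for group means and grey for 1 SD to either side; the axes do not start at 0. Tumour L4 lies far above the other tumour areas in both ratios of Aqp3, at 1.83 and 1.07.

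Cdh16, the tubule gene whose promoter drives Cre, fell much less than the 9 genes. It had 764, 1015, 1076, 1081 and 955 CPM in the tumour areas, against 1111, 1162, 1150 and 1162 CPM in the normal areas. Its log2 fold change of -0.23 ± 0.10 (SE) did not pass the test (adjusted p = 0.0543 in edgeR) and was 0.06 when libraries were scaled by size alone; it was called lower under 6 of 19 alternatives. A list of tubule epithelium genes that includes Cdh16 went both ways, so Cdh16 alone does not describe that epithelium. Of its 10 tested genes, 4 were higher, 2 lower and 4 not called, against 39.3% higher and 35.3% lower over all tested genes. Each of the 9 genes was lower relative to Cdh16 in 5 of 5 tumour areas. The differences in log2 ratio ran from -1.65 for Scnn1g to -3.46 for Slc8a1 (exact permutation, adjusted p = 0.0198 for Aqp3 and 0.0132 for each of the others). For Aqp3 the adjusted p was 0.0893 when any 1 normal area was left out. Proximal tubule genes were lower as well: 15 of 17 tested fell, against 35.3% of all tested genes, with a median log2 fold change of -1.47. Their summed level was 27518 to 51308 CPM in tumour and 67101 to 69170 CPM in normal areas. A large part of this sum was Kap, which was not called. Kap had 16232 to 28812 CPM in tumour, lowest in L4, and 23917 to 25250 CPM in normal areas. Among the 15, Slc27a2 lost the call under 10 of 19 alternatives and Slc3a1 under 2. By its sum the proximal tubule list was lowest in tumour L4, whereas the 9 genes were lowest in tumour R2. Of its 17 tested genes, 10 were lowest in tumour L4 and 6 in R2.

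Other genes that act in the distal nephron or in its control were put into 8 lists, and 104 of them are in the table. Not all of them are particular to the distal nephron, so their counts do not describe that part of the tubule alone. Of 74 tested, 51 (68.9%) fell, 10 rose and 13 did not pass, with a median log2 fold change of -0.80; 35.3% of all tested genes fell and their median was 0.06. Another 18 of the 104 are listed at 0 in all 9 areas, among them Scnn1a (the alpha subunit of ENaC), Sgk1, Wnk4, Stk39 and Pvalb, and no value is drawn from them. Besides the 9, tumour R2 was the lowest tumour area in 6 of 7 tested genes of the thick ascending limb list. The shares were 7 of 11 for the distal convoluted tubule, 6 of 11 for WNK and 6 of 10 for intercalated cells. The list of principal cells and water handling had 6 of 12. Aldosterone had 2 of 8, transcription factors 4 of 13 and the sodium pump 1 of 6.

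**Figure D4:**
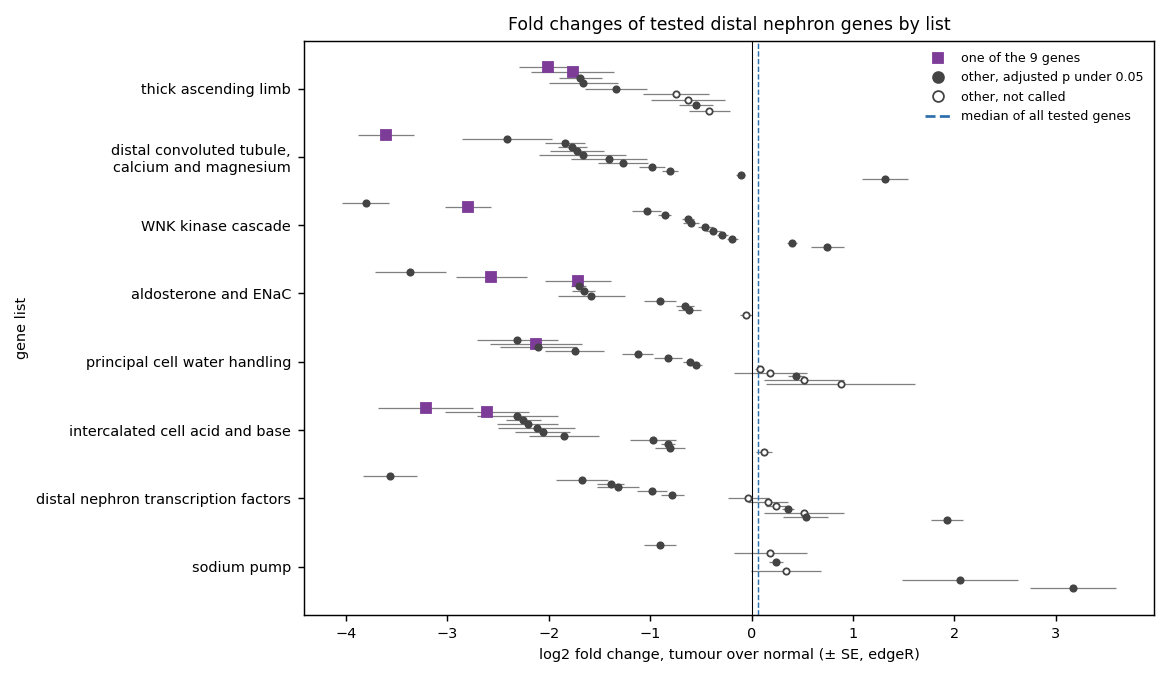
Log2 fold change of tumour over normal areas for every tested gene of the distal nephron lists and the 9 genes, 1 row per list, with bars for the SE, squares for the 9 genes, filled circles for other called genes, open circles for genes not called and a dashed line at the median of all tested genes. The 9 genes all lie below -1.7, while the lists of transcription factors and of the sodium pump spread over both sides of 0.

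In the thick ascending limb, 4 of 7 tested genes besides Slc12a1 and Egf fell and 3 did not pass. The share called lower over all tested genes was 35.3%. Ptger3, a prostaglandin E2 receptor, fell (log2 fold change -1.66 ± 0.34 SE), as did the claudin gene Cldn10 (-0.55 ± 0.17), which lost the call when scaled by library size alone or when only R areas were used. Umod, which encodes uromodulin and is the best known marker of this segment, had 2458, 1219, 5300, 3720 and 3537 CPM in the tumour areas, against 5983, 5479, 5056 and 5235 CPM in the normal areas. The groups overlapped, as R3 reached the normal range, and Umod was not called (log2 fold change -0.74 ± 0.32 SE, adjusted p = 0.0584 in edgeR). It passed under 5 of 19 alternatives, without tumour R3 with a log2 fold change of -0.99 (adjusted p = 0.0135 in edgeR). Cldn19 and Kcnt1 were not called either.

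Of all tested genes, 35.3% were lower and 39.3% higher. In the list of the distal convoluted tubule with its calcium and magnesium genes, 10 of 11 tested genes besides Slc8a1 fell and 1 rose. Of these Atp2b1, a calcium pump gene, fell by only 0.11 on the log2 scale (adjusted p = 0.0471 in edgeR), lost the call under 11 of 19 alternatives and was higher by 0.18 with libraries scaled by size alone (adjusted p = 0.00273 in edgeR). Slc12a3, the thiazide-sensitive sodium chloride cotransporter, averaged 325 ± 186 CPM in tumour and 1032 ± 59.6 CPM in normal areas (log2 fold change -1.67 ± 0.43 SE, adjusted p = 0.00506 in edgeR). Calb1, the calcium-binding protein calbindin, averaged 646 ± 371 CPM in tumour and 3437 ± 290 CPM in normal areas (-2.41 ± 0.45). Kl, which encodes the FGF23 coreceptor klotho, fell to 1275 ± 371 CPM in tumour against 4555 ± 162 CPM in normal areas. Vdr, the vitamin D receptor, fell (-0.98 ± 0.13), as did Cnnm2, a gene of magnesium transport (-0.80 ± 0.08), and the sphingomyelin synthase gene Sgms2 (-1.77 ± 0.14). The epithelial calcium channel genes went opposite ways: Trpv5 fell (-1.41 ± 0.38), while Trpv6 rose to 8.79 ± 2.01 CPM in tumour against 3.52 ± 0.875 CPM in normal areas.

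In the WNK list, 9 of 11 tested genes besides Wnk1 fell and 2 rose, against 35.3% and 39.3% of all tested genes. Most changed by less than 2-fold. With libraries scaled by size alone Cul3, Cab39 and Oxsr1 lost the call, and the last 2 turned to 0.0048 and 0.10; Oxsr1 also lost it with upper quartile scaling and with only R areas. An exception to the falls of less than 2-fold was Klhl3, the adaptor through which WNK kinases are degraded. Klhl3 fell to 7.52 ± 2.94 CPM in tumour against 106 ± 13.1 CPM in normal areas (log2 fold change -3.81 ± 0.23 SE, adjusted p = 3.19e-07 in edgeR). Its relative Klhl2 (-0.60 ± 0.08) and the cotransporter genes Slc12a7 (-0.86 ± 0.06) and Slc12a2 (-0.63 ± 0.06) fell less. Slc12a4 (0.75 ± 0.16) and the calcineurin subunit gene Ppp3ca (0.40 ± 0.05) rose.

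In the list of aldosterone and ENaC, 7 of 8 tested genes besides Scnn1g and Hsd11b2 fell and Nedd4 did not pass. The share of all tested genes that fell was 35.3%. Scnn1b, the beta subunit of ENaC, averaged 29.7 ± 13.5 CPM in tumour and 88.8 ± 7.66 CPM in normal areas (log2 fold change -1.58 ± 0.33 SE). Nr3c2, the mineralocorticoid receptor, fell to 0.505 ± 0.378 CPM in tumour against 5.35 ± 0.543 CPM in normal areas (-3.37 ± 0.35, adjusted p = 9.96e-06 in edgeR). This rests on few reads of Nr3c2, 2, 1, 4, 2 and 7 in tumour L4, R2, R3, R4 and R5, against 25 to 36 in the normal areas. Per1, a clock gene that aldosterone induces, and Usp2, a deubiquitinase linked to ENaC, fell by 1.71 and 1.66 on the log2 scale. Nedd4l, the ubiquitin ligase that removes ENaC from the membrane, fell as well (-0.66 ± 0.09).

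Among genes of principal cells and water handling, 7 of 12 tested besides Aqp3 fell, 1 rose and 4 did not pass. For all tested genes the shares were 35.3% lower and 39.3% higher. The list also holds water channels and signalling genes that are not particular to principal cells. Aqp2, the vasopressin-regulated water channel that defines the principal cell, had 31.6, 16.3, 89.4, 69.8 and 76.9 CPM in the tumour areas, against 239, 261, 228 and 245 CPM in the normal areas (log2 fold change -2.10 ± 0.38 SE, adjusted p = 0.000503 in edgeR). In tumour L4 Aqp2 was thus the second lowest of the tumour areas, where Aqp3 was the highest. Aqp11 (-1.12 ± 0.16), Aqp1 (-0.83 ± 0.14), Prkar2a (-0.61 ± 0.06) and Adcy6 (-0.55 ± 0.06) fell, and Aqp7 rose (0.44 ± 0.08). Avpr2, the vasopressin receptor, had too few counts for the test.

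In the list of intercalated cells, 9 of 10 tested genes besides Rhcg and Slc26a4 fell, where 35.3% of all tested genes were lower. Car2, a carbonic anhydrase that proximal tubule cells also make, did not pass. Subunits of the proton pump fell, Atp6v0d2 to 33.6 ± 13.9 CPM in tumour against 140 ± 12 CPM in normal areas (log2 fold change -2.06 ± 0.27 SE) and Atp6v1b1 to 38.4 ± 18.8 CPM against 139 ± 5.71 CPM in normal areas (-1.85 ± 0.34). The bicarbonate transporter gene Slc4a9 (-2.21 ± 0.30), Insrr, a receptor that senses alkaline pH (-2.25 ± 0.17), and Kit (-0.83 ± 0.07) fell too.

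Of 13 tested transcription factors of the distal nephron, 6 fell, 3 rose and 4 did not pass, with a median log2 fold change of -0.03; over all tested genes 35.3% were lower and 39.3% higher. Esrrg, an orphan nuclear receptor, fell to 1.28 ± 0.558 CPM in tumour against 15.1 ± 2.51 CPM in normal areas (log2 fold change -3.57 ± 0.26 SE, adjusted p = 9.42e-07 in edgeR). Lhx1 (-1.39 ± 0.14) and the coactivator gene Ppargc1a (-0.78 ± 0.11) fell. Elf3 rose to 18.5 ± 3.28 CPM in tumour against 4.84 ± 0.140 CPM in normal areas, Hoxb7 rose by 0.36 on the log2 scale, and Ehf passed narrowly (adjusted p = 0.0478 in edgeR), a call lost under 11 of 19 alternatives. Gata3, known from principal cells and also from urothelium, had 167 CPM in tumour L4 and from 31.7 to 76.6 CPM elsewhere in the tumours, against 52.3 to 55.8 CPM in the normal areas, and was not called.

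The genes whose pattern was nearest to each of the 9 over the 9 areas were found by the root mean square difference of log2 CPM relative to the normal mean, among 5487 genes. All points share their libraries, so this is a description. The nearest to Egf were Atp6v1b1 (0.13) and Slc12a3 (0.16), the nearest to Scnn1g were Scnn1b (0.14) and Atp6v1b1 (0.19), and the nearest to Slc12a1 were Fads6 (0.21) and Atp6v0d2 (0.21). Ptgfr was the nearest to both Hsd11b2 (0.15) and Slc26a4 (0.17), followed by Slco1a1 (0.17) for Hsd11b2 and by Calb1 (0.17) for Slc26a4. Klhl3 (0.25) and Slc16a7 (0.26) were the nearest to Slc8a1, Cry1 (0.30) and Malrd1 (0.31) to Wnk1, and Tmem28 (0.32) and Azgp1 (0.33) to Rhcg. The distances were largest for Aqp3, whose nearest genes were Acss3 (0.47) and Gsta3 (0.57).

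Markers of other cells differed between the same areas. Over all tested genes, 39.3% were called higher and 35.3% lower. Of 7 tested podocyte markers, 5 were lower and 2 did not pass, with a median log2 fold change of -1.13. Of 9 tested endothelial markers, 6 were lower, 2 higher and 1 did not pass, with a median of -0.79. The summed level of 11 urothelial markers was 1253, 112, 67.3, 43.8 and 245 CPM in tumour L4, R2, R3, R4 and R5, against 0.995 to 7.36 CPM in the normal areas, and 6 of 6 tested were higher in edgeR and 2 with limma-voom. In tumour L4, where Aqp3 was highest, the urothelial genes Upk1b and Krt5 had 379 and 294 CPM. Fat markers were also far higher there, with a summed level of 2172 CPM in tumour L4, 577 CPM in R5 and 48.1 to 114 CPM in R2, R3 and R4, against 49.3 to 112 CPM in the normal areas. The part of either kind of cell in the level of Aqp3 was not tested. The log2 fold change of Aqp3 was -2.65 without that area. The summed level of leukocyte markers was 1646 to 3774 CPM in tumour and 159 to 186 CPM in normal areas, with 13 of 14 tested higher. That of fibroblast and pericyte markers was 1244 to 4249 CPM in tumour and 362 to 398 CPM in normal areas, with 7 of 10 tested higher and 2 lower. In the urothelial, leukocyte and fibroblast sums tumour L4 was the highest and R4 the lowest tumour area, whereas the 9 genes were lowest in R2. The fat sum was highest in L4 and lowest in R3. The urothelial gene Krt14 and the leukocyte gene Ptprc are listed at 0 in all areas. Cell division genes summed to 246 CPM in tumour R2 and to 162 to 195 CPM in the remaining ones, against 25.9 to 32.8 CPM in the normal areas, and 12 of 12 tested were higher. The part of these cells in the lower levels of the 9 genes was not tested.

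**Figure D5:**
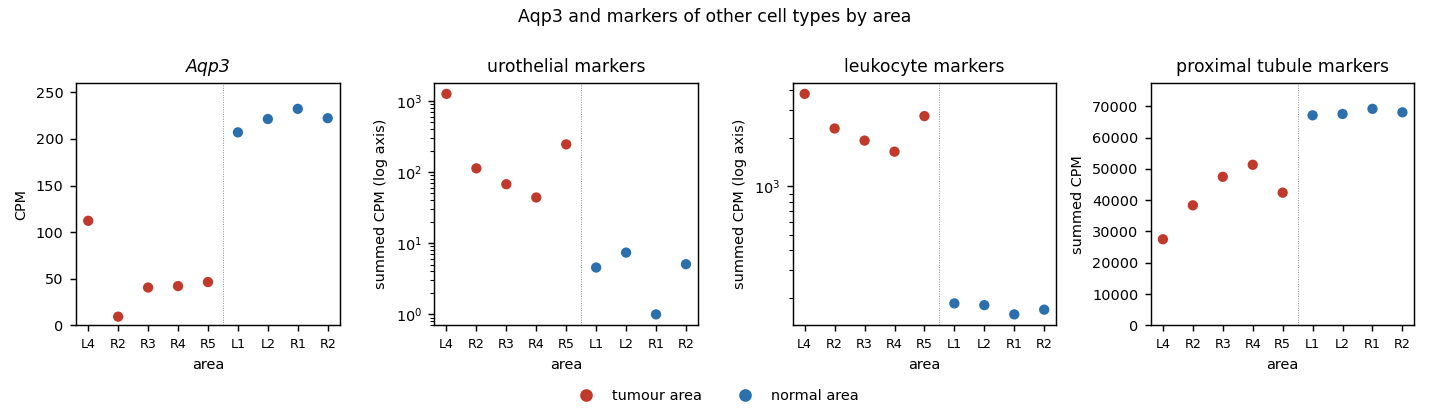
CPM of Aqp3 and summed CPM of urothelial, leukocyte and proximal tubule markers in each area, tumour areas (red) left of normal areas (blue); the urothelial and leukocyte axes are log axes. Tumour L4 is the highest tumour area for Aqp3 (112 CPM) and for urothelial markers (1253 CPM) and the lowest for proximal tubule markers (27518 CPM).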

How the data were processed

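Kidney cortex RNA of 5 tumour and 4 normal areas was analysed from the deposited table of raw read counts per gene, 1 column per area. Per the submitters' processing notes, STAR 2.3, HTSeq, edgeR and the build mm9 were used; per the labels' protocols, libraries were made with a poly(A) TruSeq kit and read as paired ends. No annotation, strand setting or filter is named in the sources used here. Of 14052 gene identifiers, 14026 matched a symbol and 26 did not.

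Genes were filtered with filterByExpr by group (minimum count 10, minimum total 15), scaled by TMM and tested with edgeR 4.0.16 in R 4.3.3 with the group as the only term. Calls are Benjamini-Hochberg adjusted p under 0.05 over 7020 genes. The common biological coefficient of variation was 0.152. Totals of 5143527 to 8250261 counts put the limit of a 0 (3 counts) at 0.409 to 0.648 CPM, for counting error only. Log ratios used a prior count of 2 and were tested by exact permutation. The steps were tested on simulated data. Tables and plots used Python 3.11.15, pandas 2.3.3 and matplotlib 3.10.9. Symbols, chromosomes and overlaps came from GENCODE vM21 and promoters from RefSeq.

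The 9 genes, the lists and the tests were chosen with earlier results of these data known. Named besides the 9 are Cdh16, Vhl and Pbrm1, up to 4 called genes per list and direction with the lowest adjusted p, genes that did not pass or are listed at 0, and the 2 nearest genes by pattern. Some genes that this rule names are not reported here. Slc12a3, Calb1, Trpv5, Scnn1b, Aqp2, Atp6v1b1, Upk1b, Krt5, Slc27a2 and Slc3a1 were named after their values were seen.

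Results were recomputed with scaling by RLE, by the upper quartile or by library size, without a filter, with at least 1 CPM in 4 areas, DESeq2 1.42.0, limma-voom 3.58.1, the area letter as covariate, only R areas, each area left out, tumour L4 and R5 left out, and a prior count of 0.5.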

Additional observations from a re-analysis of the deposited data

Results flagged for a closer look

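In 130 groups of areas examined for an area far from the others of its group, 7 were found, and chance alone gives about 5%. Tumour L4 stood apart in 3 ratios. Its log2 ratio of Aqp3 over Scnn1g was 1.83, against -0.10 to 0.13 in the other tumour areas. Its log2 ratio of Aqp3 over Hsd11b2 was 1.07, against -1.44 to -1.26 in the others. Its log2 ratio of Scnn1g over Hsd11b2 was -0.75, against -1.44 to -1.33 in the others. Tumour R2 stood apart in the log2 ratio of Scnn1g over Cdh16, at -6.79, against -4.76 to -4.48 in the other tumour areas. Among the normal areas, L1 had 2878 CPM of Egf, against 2699 to 2722 CPM in the others, and a log2 ratio of Egf over Cdh16 of 1.37, against 1.22 to 1.23. Normal R1 had a log2 ratio of Rhcg over Cdh16 of -5.98, against -6.09 to -6.07 in the other normal areas.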

How the results depend on the processing

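The 9 genes kept their direction and their call in 171 of 171 fits over 19 alternatives, with the adjusted p highest for Egf when only R areas were used (0.0286 in edgeR). Counts over all genes stayed within 1.5 times, with 3732 higher and 1689 lower for scaling by library size alone, against 2760 and 2476, and it moved the median log2 fold change by 0.29, to 0.35. Cdh16 turned to 0.056 (adjusted p = 0.507 in edgeR) under that scaling and was called lower under RLE (-0.25), DESeq2 (-0.25), with the area letter as covariate (-0.30) and without tumour L4 (-0.14), R3 (-0.26) or R4 (-0.27). Of 304 counts of the distal lists, 13 moved past 1.5 times, all of them of genes called higher; counts of genes called lower differed at all in 27 of 152 and stayed within that bound, the widest being 7 to 10 for the WNK list against 10 as reported. Transcription factors called higher ran from 2 to 5. In the principal cell and water handling list, genes called higher were 2 in place of 1 with upper quartile or library size scaling. The same held with no filter, DESeq2, limma-voom, only R areas or without normal L2 (range 1 to 2 over areas left out). Scaling by library size alone gave 2 distal convoluted tubule, 1 aldosterone, 1 intercalated cell and 5 transcription factor genes higher, in place of 1, 0, 0 and 3. Intercalated cell genes called higher were 1 without tumour L4 and R5, and 0 to 1 over single areas left out.

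Of 165 tested log ratios under alternatives, 149 kept direction and call, and of 15 with only R areas, which have no test, 13 kept their sign. With single areas left out, the differences ran from -0.29 to 0.031 for Slc12a1/Egf, from -0.97 to -0.49 for Aqp3/Scnn1g, from -0.22 to 0.41 for Aqp3/Hsd11b2, from -1.05 to -0.72 for Slc8a1/Wnk1, from -0.59 to -0.42 for Rhcg/Slc26a4 and from -2.73 to -1.75 for Aqp3/Cdh16, whose adjusted p was 0.0893 without any 1 normal area (exact permutation, fewer areas). Without tumour L4 and R5 Slc12a1/Egf was 0.085 (adjusted p = 0.829), Aqp3/Scnn1g -0.998 and Aqp3/Hsd11b2 -0.24 (adjusted p = 0.0306 each, exact permutation). Slc12a1/Egf was 0.026 with only R areas, and Aqp3/Hsd11b2 was -0.23, both untested because 4 against 2 areas cannot reach 0.05. The cause was not tested. No paired analysis was possible because the groups differ in number, genotype and strain, so the area label R2, which both hold, does not mark a pair.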

Other observations

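The sodium pump drives transport in every segment of the tubule. Of its 6 tested genes 1 fell, 3 rose and 2 did not pass, where 35.3% of all tested genes were lower and 39.3% higher. Atp1b1, the beta subunit of tubule cells, fell to 5712 ± 1233 CPM in tumour against 10684 ± 182 CPM in normal areas (log2 fold change -0.90 ± 0.16 SE). Fxyd5, a pump regulator, rose to 5.26 ± 1.94 CPM in tumour against 0.596 ± 0.319 CPM in normal areas (log2 fold change 3.17 ± 0.42). Atp1b3 rose by 0.24 on the log2 scale, a call lost with only R areas.

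Slc14a2, the urea transporter of the inner medulla, had 9.18, 18.3, 14.3, 9.14 and 8.06 CPM in the tumour areas, against 1.51, 19.6, 0.83 and 1.82 CPM in normal L1, L2, R1 and R2. It was not called (log2 fold change 0.88 ± 0.73 SE, adjusted p = 0.296 in edgeR). Without normal L2, its log2 fold change was 3.09 (adjusted p = 0.000139 in edgeR).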
